A study of Mus musculus with 16 samples.

Results

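The interferon response genes described here are 9 named genes: the signal transducers Stat2 and Irf9, the transcription factors Irf1 and Irf7, the RNA sensor gene Ifih1, and the antiviral effectors Ifit1, Ifit2, Ifit3 and Isg15. Members were all probe sets that the array annotation assigns to exactly 1 of these symbols, which gave 9 probe sets for 8 genes out of 34945 single-gene probe sets for 18193 genes, on an array of 45101 probe sets. Stat2 had 2 probe sets and the other 7 genes had 1 each. The only probe set of Isg15 also carries Gm9706, a second locus, so it falls outside that rule and its values are given apart. All 8 genes passed the filter on dim genes, which kept 10916 genes by their mean over all 16 arrays.

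Such genes are switched on when cells sense interferons, the cytokines of antiviral defence. Receptor-bound JAK kinases phosphorylate STAT2, which joins IRF9 in the complex ISGF3, and this complex binds the interferon-stimulated response element (ISRE) in the promoters of its targets. Interferon gamma acts mainly at a different element, the gamma-activated site (GAS), and induces Irf1 among its early targets. In the heart, resident macrophages, fibroblasts, endothelial cells and cardiomyocytes can all express such genes.

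The samples were left ventricles of PPARalpha-/- mice (KO) after 28 days of transverse aortic constriction (TAC), of KO mice after a sham operation, of wild-type mice (WT) after TAC and of WT mice after a sham operation, with 4 arrays in each of these 4 groups. PPARalpha is a nuclear receptor that activates genes of fatty acid use and is also known to restrain inflammatory transcription. TAC narrows the aorta and loads the left ventricle with pressure. The comparisons set KO hearts against WT hearts with and without this load. The labels give no strain, sex or age, do not describe the allele further, and do not say whether each array is 1 animal. The spread that p-values rest on may therefore be partly technical.

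Ppara itself checked the labels: on its 3 probe sets, signals lay between 180.1 and 748.1 on KO arrays and between 759.9 and 3258.8 on WT arrays, with no overlap on any of them. All 11 cardiomyocyte markers were measured, with summed signals of 505164.1 to 899188.5 per array. WT TAC replicate 3 stood somewhat apart, with the lowest mean correlation with its group (0.94) and the highest median signal (163, against 108.3 to 141 on the others). It also had the highest hybridisation spike-in signal (13.04 on the log2 scale). KO TAC replicates 3 and 2 had the lowest (12.13 on replicate 2, and replicate 3 below it). The calls of interferon pathway genes and the sign counts of the 8 genes are also given without these 3 arrays where that changes them. Spike-in signal also differed between whole groups. All WT TAC arrays read at least 12.62, and of the KO TAC arrays only replicate 1 (12.68) exceeded that. In sham, KO replicates 1, 2 and 4 (12.64 or more) exceeded every WT array (12.63 or less), and KO replicate 3 did not. Genotype and spike-in signal thus varied together in part, so a fit with spike-in signal as a covariate cannot fully separate them.

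The promoters show what the genes share by sequence. In RefSeq windows of assembly GRCm38.p6, from 250 bases before to 50 bases after the annotated start, all 9 genes matched by symbol and had 12 windows. The ISRE core, which is GAAA and GAAA with any 2 bases between them, was searched on both strands and was in windows of 5 of the 9 genes: Stat2, Ifih1, Ifit1, Ifit3 and Isg15. Of all 27025 genes with such windows, 3.99% hold it. The GAS core TTCNNNGAA, which reads the same on both strands, was in windows of 2 genes, Irf1 and Ifit2, and in 9.55% of all genes. No match of one motif overlapped one of the other, but the 3 ISRE matches of Isg15 overlap each other. The 250 bases upstream of the start follow for 3 genes with repeated ISRE matches and for the 2 genes that pass a test below, with matches to either motif in capitals.
Ifit1, chr19:34640639-34640888, plus strand: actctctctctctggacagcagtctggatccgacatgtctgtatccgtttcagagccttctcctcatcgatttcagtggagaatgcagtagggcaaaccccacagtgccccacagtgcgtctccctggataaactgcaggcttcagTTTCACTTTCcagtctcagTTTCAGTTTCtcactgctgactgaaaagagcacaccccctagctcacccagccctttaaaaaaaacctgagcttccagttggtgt
Ifit3, chr19:34583279-34583528, plus strand: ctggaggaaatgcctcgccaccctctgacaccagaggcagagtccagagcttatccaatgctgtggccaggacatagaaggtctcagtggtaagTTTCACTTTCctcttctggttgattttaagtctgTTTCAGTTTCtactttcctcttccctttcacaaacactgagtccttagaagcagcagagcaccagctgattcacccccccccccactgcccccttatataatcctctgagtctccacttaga
Isg15, chr4:156200819-156201068, minus strand: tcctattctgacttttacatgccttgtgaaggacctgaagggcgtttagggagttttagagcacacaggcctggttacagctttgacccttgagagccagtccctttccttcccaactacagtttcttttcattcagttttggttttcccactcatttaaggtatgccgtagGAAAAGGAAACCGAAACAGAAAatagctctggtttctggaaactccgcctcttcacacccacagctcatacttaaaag
Irf7, chr7:141266425-141266674, minus strand: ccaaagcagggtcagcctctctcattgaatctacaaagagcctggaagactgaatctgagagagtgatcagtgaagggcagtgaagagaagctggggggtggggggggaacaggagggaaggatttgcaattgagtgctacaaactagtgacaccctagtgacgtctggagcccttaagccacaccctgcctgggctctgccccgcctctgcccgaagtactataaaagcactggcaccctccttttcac
Ifit2, chr19:34550444-34550693, plus strand: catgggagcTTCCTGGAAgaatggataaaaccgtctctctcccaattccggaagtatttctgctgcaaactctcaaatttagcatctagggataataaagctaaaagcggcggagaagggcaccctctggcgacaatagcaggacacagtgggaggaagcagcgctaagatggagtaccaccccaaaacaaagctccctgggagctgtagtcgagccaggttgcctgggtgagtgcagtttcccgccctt

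Ifit1 and Ifit3 each carry 2 ISRE matches, read on the reverse strand as TTTCACTTTC and then TTTCAGTTTC in both genes, beginning at positions -104 and -85 of Ifit1 and at positions -156 and -122 of Ifit3, counted from the start. Isg15 has 3 in a row between positions -78 and -57. Irf7 has neither motif in this window, and Ifit2 has a GAS core at position -241 of the first of its 2 annotated starts and no ISRE core at either. A match is a run of letters and not a measured binding site, and an absent match concerns these letters in these windows alone.

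**Figure D1:**
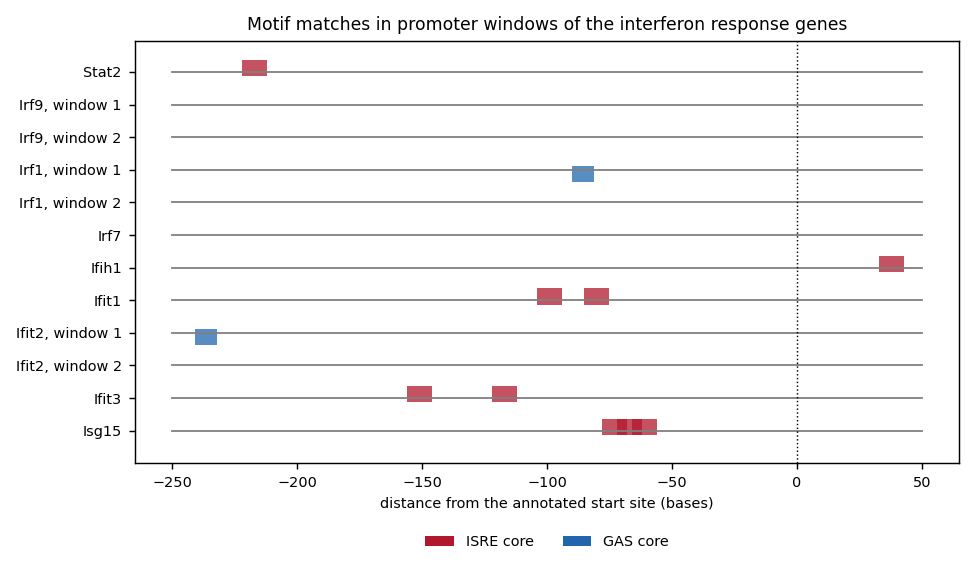
Matches to the ISRE core (red) and the GAS core (blue) in the 12 promoter windows of the 9 genes, by distance in bases from the annotated start site (dotted line); each grey line is a window and each bar a match. Ifit1 and Ifit3 have 2 ISRE matches each and Isg15 has 3 that overlap, while both windows of Irf9, the window of Irf7 and the second windows of Irf1 and Ifit2 have none.

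Levels are given as the authors' scaled linear signal. Differences are limma's log2 fold changes ± SE (n = 4 per group), with p adjusted by Benjamini-Hochberg over all 10916 genes tested. Signals of different probe sets cannot be set against each other, since each binds its target differently.

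Irf7, the IRF that amplifies the type I interferon response, was the only one of the 8 genes that passed the test in a comparison of 2 groups. It gave 628.2, 546.2, 521.1 and 643.9 in KO TAC, against 458, 416.7, 359.4 and 325.4 in WT TAC. Every KO TAC array lay above every WT TAC array. In sham ventricles it gave 403.5, 491.4, 618.4 and 502 in KO and 455.1, 402.1, 399.1 and 409.4 in WT, where KO sham replicate 1 fell within the WT range and the other 3 KO arrays lay above it. Irf7 was thus 1.51-fold higher in KO TAC than in WT TAC (0.59 ± 0.14, adjusted p = 0.0356), and stood at rank 201 of 10916 genes by p. Of all genes tested, 2.46% passed in this comparison, and 1.32% passed as higher. In sham the value was 0.26 ± 0.14 (adjusted p = 0.65).

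The Irf7 call was narrow. It held in 15 of 31 alternatives, in which the log2 fold change stayed between 0.51 and 0.78. The highest value came with median-centred arrays, where the median over all genes was 0.22. Leaving out WT sham replicate 2, WT TAC replicate 2, 3 or 4, or any 1 KO TAC replicate ended it (adjusted p = 0.0512 to 0.106). The adjusted p was 0.155 without the 3 spike-in extremes and 0.0798 with the replicate number as a block. With spike-in signal as a covariate the value was 0.64 ± 0.19 (adjusted p = 0.217). A limma fit over 45037 probe sets, with no filter on dim genes, gave 0.191 and is not counted among the 31.

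Ifit2, which encodes a tetratricopeptide-repeat protein that binds viral RNA and limits translation, had the largest KO difference of the 8 genes in both operations. It gave 360.9, 302.7, 346.1 and 241 in KO TAC, against 276, 159.6, 137.9 and 202.8 in WT TAC. WT TAC replicate 1 alone reached into the KO range. In sham it gave 334.5, 273.5, 243.1 and 303.6 in KO, against 200.4, 184.5, 195.5 and 136.4 in WT, with no overlap. The difference was 0.72 ± 0.20 in TAC (1.65-fold, adjusted p = 0.0852) and 0.69 ± 0.20 in sham (1.62-fold, adjusted p = 0.218), so neither passed. The TAC difference passed in 2 of 30 alternatives, over which it ran from 0.51 to 0.91 with adjusted p up to 0.57. Those 2 were without WT TAC replicate 1 (0.91, adjusted p = 0.0247) and with arrays centred on their medians (0.91, adjusted p = 0.0496). Centring also moved the median of all genes to 0.22.

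Because both differences of Ifit2 had the same size, the mean KO difference over both operations was added after the values were seen. That choice rested on the values of Ifit2, so its call there is no independent support, and the counts below include it. In that comparison of 8 KO with 8 WT arrays, 2.27% of all genes passed and 1.09% passed as higher, and 2 of the 8 interferon response genes did. At an unadjusted p under 0.05 there were 3 of the 8, against 14.2% of all genes. Ifit2 was 1.63-fold higher in KO (0.71 ± 0.14, adjusted p = 0.0156), and Irf7 was 1.34-fold higher (0.43 ± 0.10, adjusted p = 0.031). Ifit2 held its call in 28 of 29 alternatives and lost it without the 3 spike-in extremes (0.60, adjusted p = 0.129). Irf7 held in 13 of 30. Its call ended when any of these was left out: WT sham replicate 2, 3 or 4, WT TAC replicate 3 or 4, KO sham replicate 2, 3 or 4, or KO TAC replicate 1 or 4 (adjusted p = 0.0567 to 0.0701). Without the 3 arrays its value was 0.47 (adjusted p = 0.0839), and 0 of the 8 genes passed. The fit over 45037 probe sets is not counted among these alternatives. There neither gene passed (adjusted p = 0.092 for Ifit2 and 0.191 for Irf7), where 0.415% of probe sets did.

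Ifit3, whose product pairs with IFIT1 in human cells, gave 851.9, 691.7, 551 and 810.5 in KO TAC, 384.5, 442.3, 678.9 and 664.2 in KO sham, 577.3, 520.8, 576.1 and 363.1 in WT TAC, and 415.2, 440.9, 414.9 and 282.1 in WT sham. Its highest arrays were in KO TAC and its lowest in WT sham, with both other groups between them and overlapping each of these. The KO difference was 0.52 ± 0.22 in TAC (adjusted p = 0.258) and 0.46 ± 0.22 in sham (adjusted p = 0.596). The TAC difference was 0.44 ± 0.22 in KO (adjusted p = 0.349) and 0.39 ± 0.22 in WT (adjusted p = 0.719). None passed. The reference annotation holds a neighbouring near copy, Ifit3b, which this probe set may also bind.

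Ifit1, which binds RNA with a foreign 5′ end, gave 276.5, 325.1, 295.6 and 376 in KO TAC, 290.6, 256.6, 306.6 and 271.9 in KO sham, 187.2, 263.8, 376.5 and 317 in WT TAC, and 236.9, 273.8, 141.5 and 227.8 in WT sham. The 8 KO arrays spanned a narrower range than the 8 WT arrays, and WT TAC held both a higher and a lower array than any KO array. The KO difference was 0.19 ± 0.21 in TAC (adjusted p = 0.72) and 0.39 ± 0.21 in sham (adjusted p = 0.669).

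The Isg15 probe set, shared with Gm9706, gave 435.5, 231.3, 229.4 and 221.7 in KO TAC, 270.3, 271.1, 335.8 and 295.8 in KO sham, 117, 316.4, 361 and 79 in WT TAC, and 162.7, 205.2, 309.4 and 130.4 in WT sham. Isg15 codes for a ubiquitin-like protein that is joined to other proteins. WT TAC was split, with replicates 2 and 3 well above replicates 1 and 4. In the fit over 45037 probe sets, added after the values were seen, the KO difference was 0.57 ± 0.44 in TAC (adjusted p = 0.699) and 0.61 ± 0.44 in sham (adjusted p = 0.954).

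**Figure D2:**
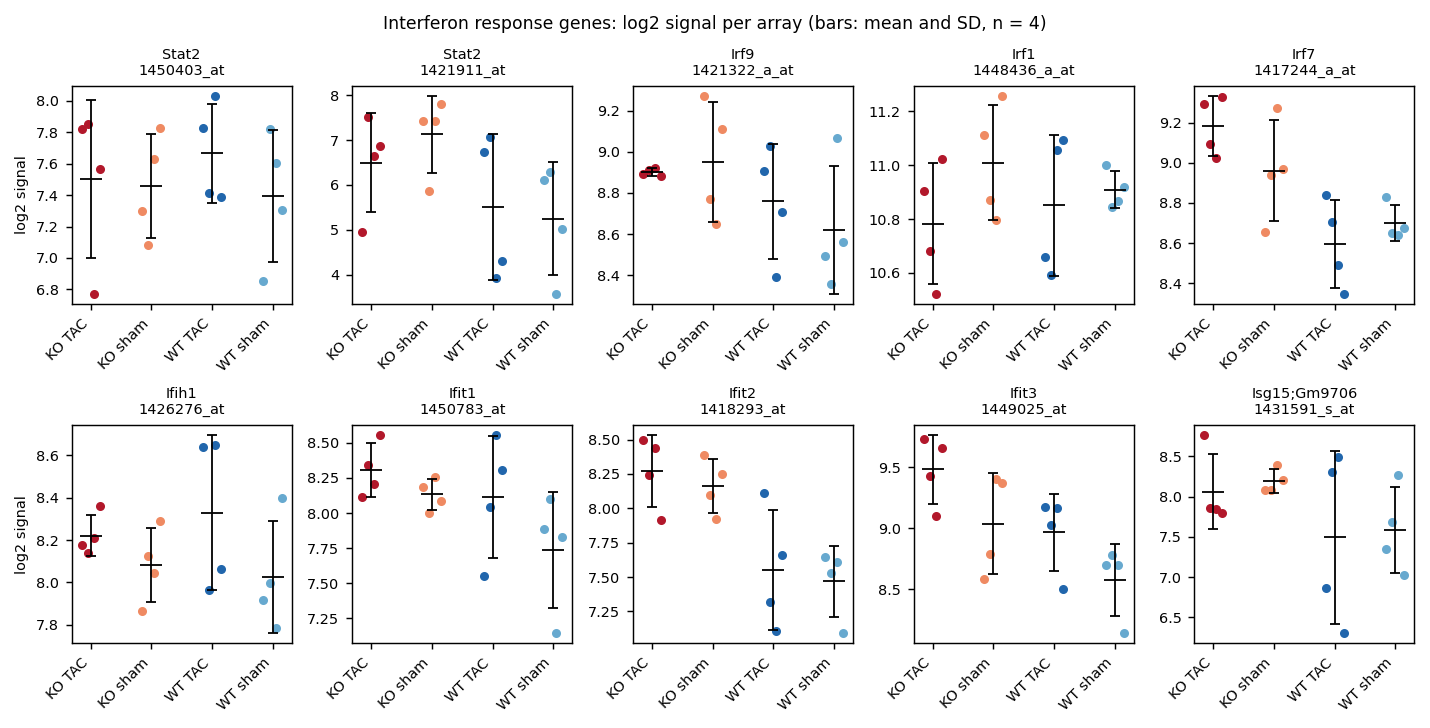
Log2 signal of the 9 member probe sets and of the probe set shared by Isg15 and Gm9706 on each array (points), with the group mean and SD (bars, n = 4), for KO TAC, KO sham, WT TAC and WT sham from left to right; signals under 11.9 are set to that floor, and each panel has its own vertical scale. In the Irf7 panel all KO TAC arrays lie above all WT TAC arrays, and in the Ifit2 panel all KO sham arrays lie above all WT sham arrays.

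The signal transducers did not pass in any comparison. Stat2 on its brighter probe set gave 226.6, 231, 109.2 and 189.8 in KO TAC, 157.8, 135.4, 198.2 and 226.9 in KO sham, 227.2, 170.6, 262.1 and 167.6 in WT TAC, and 115.4, 226.1, 194.9 and 158.3 in WT sham. All 4 groups overlapped. The KO difference was -0.16 ± 0.26 in TAC (95% interval -0.73 to 0.40) and 0.06 ± 0.26 in sham (-0.50 to 0.63).

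The second Stat2 probe set was dim and scattered, with 30.8 to 183.9 in KO TAC, 58.6 to 222.7 in KO sham, 15.1 to 134.8 in WT TAC and 8.5 to 78.6 in WT sham. Both probe sets stand for the same gene, but in sham this one gave 1.88 ± 0.83 for KO versus WT (adjusted p = 0.821), where the brighter one gave 0.06 and the average of the pair 0.97. In TAC the signs differed, with 0.99 ± 0.83 on this probe set (adjusted p = 0.724), against -0.16 on the brighter one.

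Irf9, the DNA-binding part of ISGF3, gave 474.9, 481.4, 485.4 and 471.8 in KO TAC, 618.7, 436.6, 401.4 and 552.9 in KO sham, 480.7, 522.4, 336 and 418 in WT TAC, and 360.7, 327.8, 536.6 and 377.5 in WT sham. The 4 KO TAC arrays lay within a coefficient of variation of 1.29%, against 20.1% in KO sham, 18.5% in WT TAC and 23.2% in WT sham. The KO difference was 0.14 ± 0.18 in TAC (adjusted p = 0.746) and 0.33 ± 0.18 in sham (adjusted p = 0.652).

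Irf1, an early target of interferon gamma, gave 1917.9, 1643, 1470 and 2079.8 in KO TAC, 2211.6, 1870.5, 1778.4 and 2450.3 in KO sham, 1615.6, 1543.5, 2130.6 and 2187.5 in WT TAC, and 2049.9, 1839.4, 1869.6 and 1938.4 in WT sham. The 4 groups overlapped. The TAC differences were below 0 in both genotypes and did not pass (-0.23 ± 0.15 in KO, adjusted p = 0.50, and -0.06 ± 0.15 in WT, adjusted p = 0.958).

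Ifih1 encodes MDA5, a cytosolic sensor of long double-stranded RNA. It gave 288.9, 281.5, 296 and 328.2 in KO TAC, 233.5, 278.9, 264.2 and 313 in KO sham, 398.8, 249.7, 401.8 and 267.2 in WT TAC, and 242, 255.6, 220.4 and 337.6 in WT sham. WT TAC held its 2 highest arrays and overlapped every other group. The KO difference was -0.11 ± 0.17 in TAC (95% interval -0.48 to 0.26) and 0.06 ± 0.17 in sham (-0.31 to 0.42).

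For KO against WT in TAC, 1 of the 8 genes passed and 3 had an unadjusted p under 0.05 (Irf7, Ifit2 and Ifit3), against 16.4% of all genes. In sham, limma passed 0 of the 8, where 0.742% of all genes passed and 0.229% passed as higher. At an unadjusted p under 0.05 there was 1, Ifit2, against 8.52% of all genes. Groups did not overlap for 1 gene in each operation, Irf7 in TAC and Ifit2 in sham, where 5.13% and 3.29% of all genes were higher in KO without overlap.

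By sign, 5 of 8 log2 fold changes were above 0 in TAC, against 54.5% of all genes, with a median of 0.17 for the 8 and 0.03 for all genes. The values of Stat2, Irf1 and Ifih1 were below 0 there and lay within their standard errors of it. All 8 were above 0 without the 3 spike-in extremes and with spike-in signal fitted as a covariate, while the count stayed at 5 with quantile normalisation and was 5 to 7 with each array left out. It was also 8 with arrays centred on their medians, a setting that moved the median of all genes to 0.22. In sham 8 of 8 were above 0, against 54.4% of all genes, with a median of 0.30 for the 8 and 0.02 for all genes. That count stayed at 8 with quantile normalisation, with centring and without the 3 extremes, was 5 with spike-in signal fitted as a covariate, and was 6 to 8 with each array left out, the lowest without KO sham replicate 4.

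**Figure D3:**
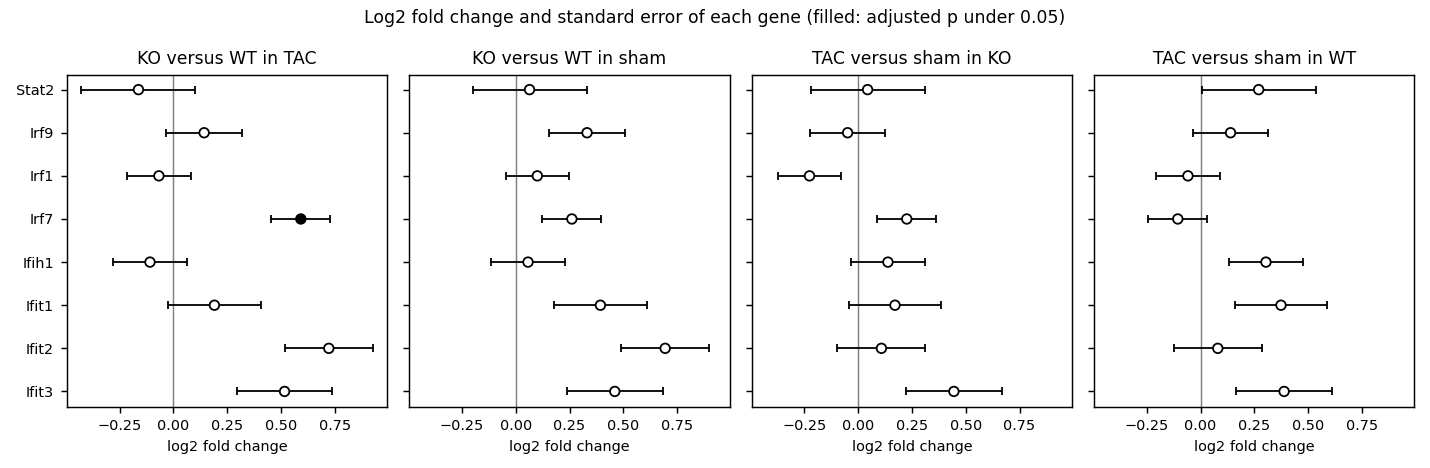
Log2 fold changes (points) and standard errors (bars) of the 8 genes for KO versus WT in TAC and in sham and for TAC versus sham in KO and in WT; filled points have an adjusted p under 0.05. Irf7 in TAC is the only filled point, and Ifit2 has the largest KO difference in both operations (0.72 and 0.69).

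Pressure overload itself passed none of the 8 genes. Limma passed 0 for TAC against sham in KO, where 2.57% of all genes passed, and 0 in WT, where 0% did. In each genotype 0 of the 8 had an unadjusted p under 0.05, against 16% of all genes in KO and 7.62% in WT. By sign, 6 of 8 were above 0 in each genotype, against 50% of all genes in each. The log2 fold changes ran from -0.23 for Irf1 to 0.44 for Ifit3 in KO and from -0.11 for Irf7 to 0.39 for Ifit3 in WT, with medians of 0.12 and 0.20. The test of whether the TAC response differed between genotypes also passed 0 of 8, with 0 at an unadjusted p under 0.05, where 0% and 10.3% of all genes did. Irf7 had the largest such difference above 0 (0.33 ± 0.19, adjusted p = 0.579).

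In the order of group means, gaps larger than the larger SD of the neighbours were found for 3 genes. The share of all genes with such a gap was not computed, so this count cannot be set against theirs. Irf7 had its gap between WT sham and KO sham (limma adjusted p = 0.65), and Ifit2 between WT TAC and KO sham. Ifit3 had gaps between WT sham and WT TAC (adjusted p = 0.719) and between KO sham and KO TAC (adjusted p = 0.349). The differences given with a p did not pass. For Stat2, Irf9, Irf1, Ifih1 and Ifit1, every pair of neighbouring groups differed by less than that SD.

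The 8 genes did not vary as a block from array to array. Over 16 arrays, Pearson's r between pairs ran from -0.25 for Irf9 and Ifih1 to 0.77 for Irf7 and Ifit3. For deviations from the group means, r was 0.72 for Irf7 and Ifit3, -0.03 for Ifit2 and Ifit3, and lowest, at -0.69, for Irf9 and Ifit1. These points share arrays and the authors' scaling. Averaged over the 8 genes in SD units, KO TAC arrays lay between -0.10 and 0.80, KO sham arrays between -0.18 and 0.80, WT TAC arrays between -0.43 and 0.17 and WT sham arrays between -0.67 and -0.46. All 4 WT sham arrays were below every other array.

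**Figure D4:**
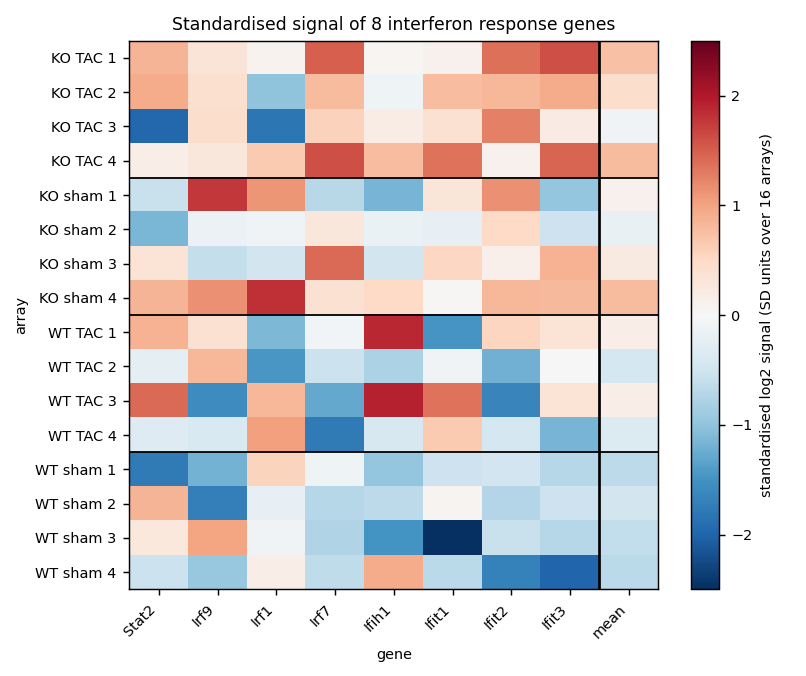
Log2 signal of the 8 genes standardised over the 16 arrays (colour, SD units), 1 row per array in the order KO TAC, KO sham, WT TAC and WT sham, with the mean of the 8 genes in the last column. The 4 WT sham arrays have the 4 lowest means, between -0.67 and -0.46.

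The 10 tested genes whose levels followed this mean most closely over the 16 arrays were the macrophage lysosomal gene Cd68 (r = 0.84), Mybpc2 (0.83), Igfbp5 (0.82), the beta myosin heavy chain gene Myh7 (0.82), the leukocyte actin-bundling gene Lcp1 (0.82), Pacsin3 (0.82), Mettl1 (0.79), Msto1 (0.78), Gpx7 (0.78) and Akip1 (0.77). Within groups, r of the deviations was between 0.35 for Msto1 and 0.75 for Mettl1, and 0.54 for Cd68.

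Macrophage markers moved in the same comparisons. Their summed signal over 12 markers was 30484.9 to 37838.9 in KO TAC, 26679.4 to 30406.8 in KO sham, 21668.4 to 29001.3 in WT TAC and 23405.4 to 25372 in WT sham. KO was above WT without overlap in both operations. Of the 12, 4 rose in KO TAC against WT TAC, where 2.46% of all genes passed. They were the complement genes C1qa, C1qb (0.64 ± 0.10, adjusted p = 0.00428) and C1qc and the Fc receptor gene Fcgr1. In sham 0 passed, with 4 at an unadjusted p under 0.05, against 8.52% of all genes. There Cd163 (-0.20 ± 0.30) and Cx3cr1 (-0.39 ± 0.51) were below 0. Over both operations 4 of the 12 passed, Cd68 among them (0.55 ± 0.11, adjusted p = 0.0152), against 2.27% of all genes. Of 6 fibroblast markers, Col1a2 (1.04 ± 0.17, adjusted p = 0.00376) and Lum (0.60 ± 0.11, adjusted p = 0.0085) rose in KO TAC against WT TAC and 0 passed in sham. The others did not pass in TAC, with 0.64 ± 0.21 for Pdgfra, 0.07 ± 0.37 for Col1a1, 0.02 ± 0.11 for Dcn and -0.20 ± 0.17 for Tcf21. Summed fibroblast signal overlapped, at 43859.4 to 51081.4 in KO TAC and 35531.8 to 47471.7 in WT TAC. Alas2, the heme synthesis gene of red blood cell precursors and the 1 erythroid marker tested, also rose in KO TAC against WT TAC, without overlap (1.07 ± 0.22, adjusted p = 0.0189), and gave 0.12 ± 0.22 in sham (adjusted p = 0.922). The 3 atrial markers tested varied widely between arrays, and their KO minus WT values in TAC were 2.95 ± 1.44 for Myl7, 3.12 ± 1.53 for Sln and 1.46 ± 0.79 for Myl4 (adjusted p = 0.326, 0.327 and 0.383). Their summed signal over 4 markers was 1025.1 to 5338.8 in KO TAC, 1356.5 to 26513.8 in KO sham, 389.7 to 2132.4 in WT TAC and 440.8 to 8285.3 in WT sham. All 3 had an unadjusted p under 0.05 for KO versus WT over both operations, with adjusted p from 0.307 to 0.344. Cardiomyocyte markers went the other way in TAC, with sums of 505164.1 to 639756.6 in KO TAC and 663575.1 to 899188.5 in WT TAC, though 0 of 11 passed. Of the 11, 8 were lower at an unadjusted p under 0.05, against 16.4% of all genes in either direction. In sham all 11 were above 0, against 54.4% of all genes, and 0 passed. The part of these cells in the values of Irf7 and Ifit2 was not tested, and in whole ventricle more cells of a type and more RNA per cell cannot be told apart. For KO versus WT in either operation, 0 of 7 endothelial, 0 of 2 neutrophil and 0 of 1 plasmacytoid dendritic cell markers tested passed. Summed endothelial signal overlapped, at 9229.1 to 11439 in KO TAC and 8919.7 to 10954.9 in WT TAC. Markers of B cells, for which no marker passed the filter on dim genes, and of T and NK cells, for which 1 did, summed to at most 679.4 and 940.5 on any array.

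Beyond the 9 genes, 86 other genes of the interferon pathway were tested, of 125 listed. For KO against WT, 1 rose and 0 fell in TAC (58 of 86 above 0, median 0.08), and 1 rose and 0 fell in sham (62 of 86 above 0, median 0.16). Over all genes, 2.46% passed in TAC, 54.5% were above 0 and the median was 0.03, and in sham 0.742% passed, 54.4% were above 0 and the median was 0.02, so the share of the 86 that passed was close to that of all genes. For TAC against sham, 0 rose and 1 fell in KO, where 2.57% of all genes passed, and 0 passed in WT, where 0% did. From a list with no call, the 2 genes of smallest p are named. None of the 5 interferon ligand genes on the array, Ifnb1 and Ifng among them, passed the filter on dim genes.

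Among receptors, kinases, negative regulators and other interferon regulatory factors, 0 of 5, 0 of 3, 0 of 6 and 0 of 5 passed in any of the 7 comparisons. Over all genes, 0% to 2.57% passed in these comparisons. In TAC, KO minus WT was 0.21 ± 0.18 for Ifngr2 and 0.11 ± 0.12 for Ifngr1, the chains of the interferon gamma receptor, 0.22 ± 0.16 for the kinase gene Jak2 and -0.26 ± 0.24 for Tyk2. The phosphatase genes Ptpn11 and Ptpn6 gave -0.21 ± 0.12 and -0.19 ± 0.23, and Irf8 and Irf2bp1 gave 0.25 ± 0.13 and -0.21 ± 0.16. In sham, Ifngr1 gave -0.33 ± 0.12 and Il10rb 0.23 ± 0.10, Jak1 gave 0.16 ± 0.11 and Tyk2 0.17 ± 0.24. Ptpn11 gave -0.19 ± 0.12 there, Usp18, which removes ISG15 from its targets and damps the receptor, 0.27 ± 0.19, Irf8 -0.31 ± 0.13 and Irf2 -0.24 ± 0.11.

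Of 12 nucleic acid sensing genes, 0 passed in any comparison, where 0% to 2.57% of all genes did. In TAC, KO minus WT was 0.29 ± 0.14 for Trim25 and 0.33 ± 0.18 for Myd88, an adaptor of Toll-like receptors. In sham it was -0.87 ± 0.46 for the DNA receptor gene Tlr9 and 0.37 ± 0.23 for Cgas, the cytosolic DNA sensor.

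Of 26 antiviral effectors, 0 passed in a comparison of 2 groups, where 0% to 2.57% of all genes did. For KO versus WT, 22 of 26 were above 0 in TAC and 21 of 26 in sham, with medians of 0.18 and 0.15, where 54.5% and 54.4% of all genes were above 0 with medians of 0.03 and 0.02. Rsad2, which encodes viperin, gave 0.41 ± 0.14 in TAC and 0.45 ± 0.14 in sham (adjusted p = 0.14 and 0.241), and both groups were free of overlap in each. Over both operations, the comparison added after values were seen, Rsad2 was 0.43 ± 0.10 (adjusted p = 0.0267). That call held in 18 of 30 alternatives and ended on leaving out WT sham replicate 2, KO sham replicate 3 or 4 or KO TAC replicate 1, 2 or 4 (adjusted p = 0.054 to 0.0632). It also ended without the 3 spike-in extremes (0.0846), with the mean of the probe sets (0.114), with no filter on dim genes (0.0761), with centring (0.0606), with the spike-in covariate (0.0633) and with the replicate block (0.0544). Parp12 gave 0.38 ± 0.11 in TAC (adjusted p = 0.102), and Ifi27 gave 0.27 ± 0.15 in sham (adjusted p = 0.674). From the list named ISG15 conjugation, the E2 enzyme gene Ube2l6 gave 0.71 ± 0.29 in TAC and 0.68 ± 0.29 in sham (adjusted p = 0.242 and 0.518). Herc3, which is on that list without a known role in ISG15 conjugation, gave 0.22 ± 0.17 in TAC. The E1 enzyme gene Uba7 gave 0.50 ± 0.21 in sham. Of the 5 genes of that list, 5 were above 0 in TAC and 3 in sham. The lowest sham value was -1.24, and 0 of the 5 passed in either operation.

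Genes driven mainly by interferon gamma gave 1 call, in sham, where 0.742% of all genes passed. Of 10 listed genes, mostly GTPases, Irgm2, which acts on vacuoles of intracellular pathogens, averaged 8.51 ± 0.32 in KO sham and 7.64 ± 0.12 in WT sham on the log2 scale (SD, n = 4 each). It was 0.87 ± 0.14 higher in KO sham (adjusted p = 0.00674) and kept its call without each array in turn, though not in a fit to these 8 arrays alone (0.0921). In TAC it averaged 8.14 ± 0.18 in KO and 8.27 ± 0.09 in WT (-0.13 ± 0.14, adjusted p = 0.707), where Ifi47 gave 0.67 ± 0.33 and Iigp1 -0.35 ± 0.19. The test of the difference between these effects gave -1.01 ± 0.20 (adjusted p = 0.125), which did not pass.

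Of 15 genes of antigen presentation and the immunoproteasome, the class I gene H2-D1 alone rose in KO TAC against WT TAC (0.56 ± 0.11, adjusted p = 0.0158), where 2.46% of all genes passed. The mean of its probe sets gave -0.04 instead (adjusted p = 0.951), and near-identical class I genes may share its probes. Its call was also lost without WT TAC replicate 4 (0.0533) or KO TAC replicate 2 (0.0569), and without the 3 spike-in extremes (0.277), and it held in 23 of 31 alternatives. In sham 0 of the 15 passed, with H2-K1 at 0.47 ± 0.12 and Psmb8 at 0.53 ± 0.16 (adjusted p = 0.123 and 0.217). In the added comparison over both operations H2-D1 was 0.37 ± 0.08 higher in KO (adjusted p = 0.0204), a call that held in 23 of 30 alternatives. The mean of its probe sets gave 0.21 there (adjusted p = 0.566). The adjusted p was 0.301 without the probe sets marked as cross-hybridising or shared between transcripts, 0.168 without the 3 spike-in extremes, 0.0804 with centring, 0.0630 with no filter on dim genes, 0.05004 with the spike-in covariate and 0.0507 without KO TAC replicate 2. Psme1, a subunit of the proteasome activator, fell in KO TAC against KO sham (-0.59 ± 0.12, adjusted p = 0.0171). Centring on array medians ended that call (0.205), as did leaving out KO sham replicate 2 (0.0553) and, separately, KO TAC replicate 2 (0.0635). It had an adjusted p of 0.134 without the 3 spike-in extremes, 0.0779 with the spike-in covariate and 0.0552 with no filter on dim genes. For KO versus WT, 9 of the 15 were above 0 in TAC and 14 of 15 in sham, beside 54.5% and 54.4% of all genes.

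Lgals3bp, a secreted glycoprotein gene, was the only listed gene to pass for TAC against sham over both genotypes (0.39 ± 0.09, adjusted p = 0.0371), and it held in 12 of 30 alternatives. Leaving out 1 array kept its call for 3 of the 16 arrays, WT TAC replicate 2, KO sham replicate 3 and KO TAC replicate 2, and gave an adjusted p of 0.0530 to 0.0785 for each of the others. Its adjusted p was 0.164 without the 3 spike-in extremes and 0.0649 to 0.104 with centring, no filter on dim genes, every probe set separately or the mean of the probe sets. In that comparison 1.99% of all genes passed and 0 of the 8 interferon response genes did, with 1 at an unadjusted p under 0.05, Ifit3 (0.42 ± 0.16, adjusted p = 0.234), against 14.1% of all genes.

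**Figure D5:**
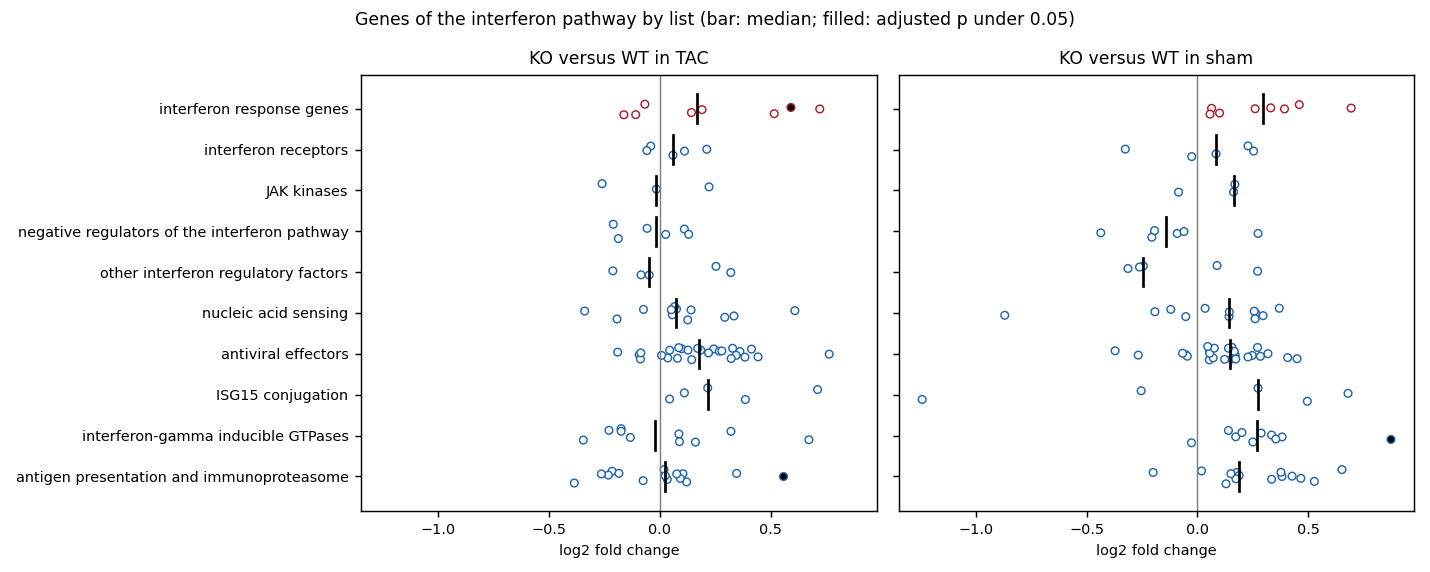
Log2 fold changes for KO versus WT in TAC and in sham of the 8 genes (top row, red) and of the tested genes of 9 lists of the interferon pathway (blue), 1 point per gene, with the list median as a bar; filled points have an adjusted p under 0.05. Filled points are Irf7 and H2-D1 in TAC and Irgm2 in sham.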

How the data were processed

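Left ventricular RNA was measured on 1-colour Affymetrix mouse arrays. The authors deposited linear signal intensity, and the submitters' processing notes name GCOS 1.4. Each deposited array had the same trimmed mean (499.8, leaving out 2% at each end), so a change in many bright genes moves the others the opposite way. How detection was called is not stated in what was read here.

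Groups came from the titles. Intensities were floored at 11.9, the 10th percentile, and log2 was taken. Of 34945 single-gene probe sets, 34741 were named by gene ID through RefSeq (GRCm38.p6). Each gene was represented by its brightest probe set, and the dimmest 40% of 18193 genes were left out. Limma 3.58.1 (R 4.3.3) fitted 1 coefficient per group over all 16 arrays, with two-sided tests and Benjamini-Hochberg adjustment (calls under 0.05), and was tested on simulated data. Named genes were the members and up to 4 called genes per pathway list and comparison. With none called, the 2 of smallest p were named, given for KO against WT within each operation. The 10 genes most alike in pattern and called macrophage, fibroblast and erythroid markers were also named. Uncalled macrophage, fibroblast and atrial markers were named outside this rule. The comparisons over both operations and over both genotypes, and the fit over all probe sets, were added after values were seen. The members and lists were chosen with earlier results of these data known. Alternatives covered scaling, floor, filter, probe sets, moderation, weights, the arrays fitted, the replicate number as a block, spike-in signal and each array left out. The number of arrays limits precision.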

Additional observations from a re-analysis of the deposited data

Results flagged for a closer look

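Of 40 sets of 4 arrays (10 probe sets in 4 groups), 2 held an array far from the other 3 on the log2 scale, and chance alone gives about 1 in 20. The probe set shared by Isg15 and Gm9706 read 435.5 on KO TAC replicate 1, where the other 3 KO TAC arrays read 221.7 to 231.3. Ifit3 read 282.1 on WT sham replicate 4, where the other 3 WT sham arrays read 414.9 to 440.9. Without that array the Ifit3 difference between KO sham and WT sham was 0.31 ± 0.23 (adjusted p = 0.87).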

How the results depend on the processing

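For KO versus WT in TAC, 1 of the 8 genes passed. With arrays centred on their medians 2 passed, Irf7 and Ifit2. The count was 0 with no filter on dim genes, each probe set fitted alone, probe sets averaged, weighted arrays, a fit to these 8 arrays only, the replicate block, the spike-in signal as a covariate, or the 3 spike-in extremes left out. It ran from 0 to 2 with each array left out. For KO versus WT over both operations 2 passed, and 1 did with centring, no filter, the 60% filter (which removes Ifit2), every probe set separately, the mean of the probe sets, the replicate block or the spike-in covariate, and 0 with the 3 extremes left out. With each array left out it was 1 or 2. The count of 0 in the other comparisons did not change under any alternative run. H2-D1 in TAC turned to -0.0369 with the mean of its probe sets.

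Of 1684 recomputed values of the 8 genes, 89 had the other sign, and 1 of these was a value of at least 0.25 in size. Over all genes, the calls for KO versus WT in TAC ran from 56 with the 3 extremes left out to 424 with trend and robust, against 268, for KO versus WT in sham from 38 with only the arrays compared to 103 with trend and robust, against 81, and for TAC versus sham in KO from 55 to 426 in the same settings as for TAC, against 280. With centring, all genes had a median of 0.22 for KO versus WT in TAC, 0.13 for TAC in KO and -0.12 for TAC in WT. Same-numbered arrays did not deviate together (r over 0.1 in 5 of 24 pairs, from -0.19 to 0.14), so the numbers are taken as names, and a call lost under the block is no sign of a smaller difference. Probe sets under the floor on some arrays, as the second Stat2 one, are limited by signal.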
